A study of Mus musculus with 24 samples.

Results

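The semaphorins, plexins, neuropilins, ephrins and Eph receptors, signalling proteins best known for steering growing axons and blood vessels, were examined in mouse carotid artery, in primary cultures of vascular smooth muscle. Members were the genes whose symbol in the platform annotation has the form of a family name (Sema, Plxn, Nrp, Efn or Eph with its number and letter). The rule used names alone and no measured value. It found 77 of 25697 probes, for 49 of 16593 named genes: 18 semaphorins, 8 plexins, 2 neuropilins, 8 ephrins and 13 Eph receptors. RNA was measured on 24 Illumina bead arrays in 5 groups, all from cells of male C57bl6 mice whose age the labels do not give. Wild-type cells (5 arrays) and PMCA4 knockout cells (5 arrays) carry no transfection in the labels and are called untransfected here. The other 3 groups were knockout cells electroporated with PMCA4b DNA (5 arrays), with vector A (5 arrays) or with vector B (4 arrays). PMCA4 is a calcium pump of the plasma membrane, and PMCA4b names a splice form of it. All 5 groups were serum synchronized, then stimulated with serum and PDGF-BB, and were harvested in late G1/S. The labels do not say how vector A and vector B differ, what drives PMCA4b, or which culture or animal each replicate came from, so the spread behind the p-values may be technical.

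Semaphorins are secreted or membrane-bound ligands that act through plexin receptors. Most of the secreted class 3 semaphorins bind a neuropilin, which passes the signal on through a plexin of class A. Plexins switch off small GTPases of the Ras and Rap type and so loosen integrin adhesion and the cytoskeleton. Ephrins are ligands anchored in the membrane, those of class A by a lipid and those of class B by a transmembrane segment, and their receptors, the Eph kinases, are activated where cells touch each other. In the vessel wall, ephrin-B2 marks arteries and its receptor EphB4 marks veins, neuropilin-1 is also a co-receptor of vascular endothelial growth factor, and Sema3a is known to inhibit cell migration.

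Between 9496 and 10406 probes were detected on each array (detection p under 0.01). Levels are log2 intensities after background correction and quantile normalization, and a probe was called detected on an array at that same threshold. The targeted gene Atp2b4 read 6.84 ± 0.181 (SD, n = 5) in knockout cells against 6.81 ± 0.209 (SD, n = 5) in wild type (limma adjusted p = 0.881). It read 6.73 ± 0.513 (SD, n = 5) with PMCA4b against 6.70 for vector, a difference of 0.03 (95% interval -0.29 to 0.34, limma adjusted p = 0.88). The detected probe thus shows neither a loss in the cells labelled knockout nor a gain in those labelled PMCA4b, and the group names below are those of the labels. The sources used here do not place that probe relative to the deletion or to the PMCA4b DNA. Of the smooth muscle markers, Acta2, Smtn and Tpm2 were detected on 24 of 24 arrays, while Myh11, Cnn1, Lmod1, Des and Myocd, which mark contractile smooth muscle, were detected on 0 of 24. Tagln was detected on all 10 wild-type and knockout arrays, 4 of 5 PMCA4b arrays and 0 of 9 vector arrays. Actg2 was detected on the 5 knockout arrays alone. Cald1 was detected on 0 wild-type, 5 knockout, 5 PMCA4b, 4 vector A and 1 vector B arrays. The summed level of the 6 measured of 12 smooth muscle markers was 14.78 to 14.99 in wild-type, 16.11 to 16.18 in knockout and 15.10 to 15.34 in PMCA4b cells on the log2 scale, against 14.12 to 14.22 with vector A and 14.10 to 14.16 with vector B. That sum is mostly Acta2, the brightest of the 6 (mean 15.96 in knockout cells). In knockout against wild type Smtn was not called (log2 difference -0.05, limma adjusted p = 0.501), and the others were higher. Of the higher genes, Actg2 and Cald1 were undetected in wild type. The summed level of the 6 measured of 9 fibroblast markers was 12.19 to 12.46 in wild type, 15.11 to 15.26 in knockout, 13.45 to 13.66 with PMCA4b, 13.81 to 13.91 with vector A and 13.97 to 14.09 with vector B. Lum was the fibroblast marker on the array at 0 in all groups. The fibroblast sum weighs bright genes most, and its members went different ways. In knockout against wild type Thy1, Dcn, Dpt and Col1a1 were higher, Pdgfra lower (log2 difference -0.47) and Col14a1 not called. With vector, Dcn (2.97), Col14a1 (2.74) and Dpt (1.11) were higher than in knockout, and Thy1 (-3.52), Pdgfra (-2.55) and Col1a1 (-0.33) lower. With PMCA4b, Thy1 (1.30) was higher than with vector, and Dcn (-4.42), Pdgfra (-2.59), Col14a1 (-2.55) and Dpt (-0.28) lower. Col14a1 was detected on the 9 vector arrays alone. Pdgfra was undetected with PMCA4b, and Dcn and Dpt were undetected in wild type. The log2 differences against such undetected groups are set against background. Both lists thus differed between the same groups as the guidance genes below, and their part in those differences was not tested. In such bulk samples, fewer cells of a type and less RNA per cell cannot be told apart. Of the 11 endothelial markers on the array 9, with Pecam1, Cdh5, Tek and Vwf among them, were detected on 0 of 24 arrays. Eng was detected on all 24, and Egfl7 on all arrays but those of vector A, with a mean of 8.95 with vector B and 5.87 with vector A (log2 difference 3.08, limma adjusted p = 2.61e-15). Of 6 leukocyte markers Ptprc, Itgam, Cd79a and Lyz2 were at 0, Cd3e was detected on 1 array, and Cd14 on all 24, lower in knockout than in wild-type cells (log2 difference -1.26, limma adjusted p = 3.68e-14) and higher with vector than in knockout cells (log2 difference 1.88, limma adjusted p = 4.94e-19). Of 6 epithelial markers Krt18, Krt5 and Cldn4 were at 0. Krt14 was detected on the 5 PMCA4b arrays alone (log2 difference 3.09, limma adjusted p = 3.41e-22, PMCA4b against vector), Cdh1 on the 9 vector arrays alone (log2 difference 0.86, limma adjusted p = 1.07e-07, vector against knockout), and Krt8 on 3 arrays. Krt14 and Cdh1 passed the filter only through those arrays, so their p-values are descriptive. The same holds for the calls of Col14a1, which passed only through vector, and of Actg2, which passed only through knockout. All 5 Schwann and neural crest markers on the array were at 0. The part of these genes in the differences below was not tested.

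Of the 49 guidance genes, 24 had a probe detected on at least 4 arrays and entered the test, and 25 did not. The 24 were 9 semaphorins, both neuropilins, 2 plexins, 6 ephrins and 5 Eph receptors. Detected on all 24 arrays were 10 genes: Sema3a, Sema3f, Sema4b and Sema5a, the neuropilin Nrp1, the plexin Plxna2, the ephrins Efna5, Efnb1 and Efnb2, and the receptor Epha2. Detected on 0 arrays were 24 genes. Among them were the plexins Plxna1, Plxna3, Plxna4, Plxnb1, Plxnb3 and Plxnd1, the receptors Epha1, Epha5, Epha6, Epha7, Epha10, Ephb1, Ephb3 and Ephb6, and the ephrins Efna2 and Efna3. The other 8 were the semaphorins Sema3b, Sema3d, Sema3e, Sema3g, Sema4f, Sema4g, Sema6a and Sema6c. Sema3c was detected on 2 arrays and stayed below the filter. A gene seen in 1 group alone could enter the test only by way of that group, as Epha3 and Efna1 did, so the shares of changed genes below hold for the 24 tested genes and not for the 49. Sema7a, detected on 5 knockout and 2 wild-type arrays, likewise entered only through knockout. The p-values of these genes against that group describe the difference and lend it no separate support.

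**Figure D1:**
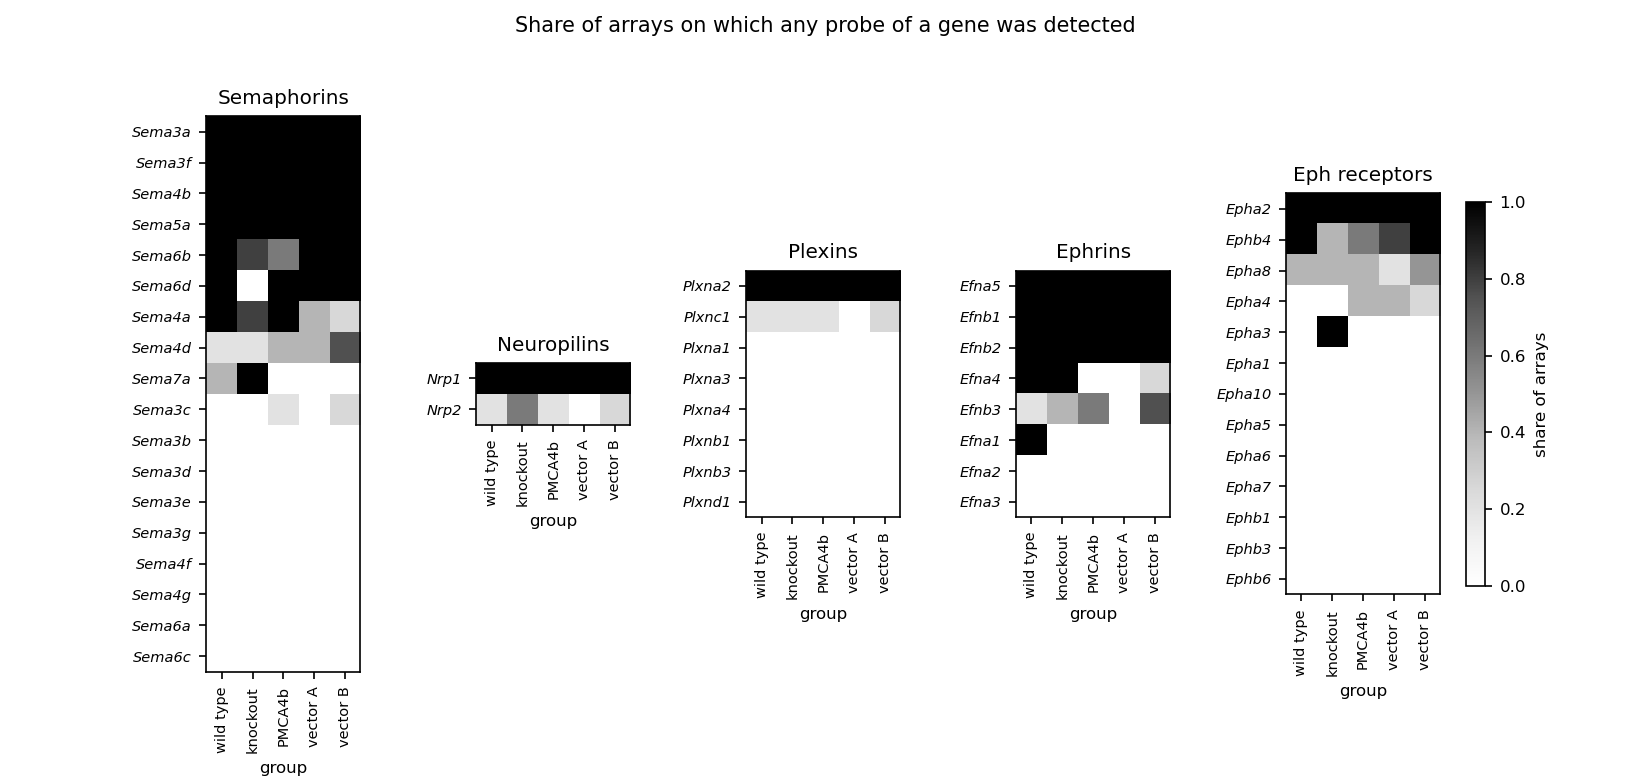
Share of arrays per group (columns) on which at least 1 probe of a gene (rows) was detected, for all 49 guidance genes by family; black is every array and white is none. Epha3 is seen in knockout cells alone and Efna1 in wild-type cells alone, and 24 genes are white in all 5 groups.

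In knockout against wild-type cells, 3 were higher and 11 lower of the 24 tested genes, at a limma adjusted p under 0.05 over all 7675 genes tested. Over all genes 57.7% were called, 26.6% higher and 31.1% lower, so the share of guidance genes called (58.3%) was near that of genes at large. The arrays of knockout and wild type did not overlap for 11 of the 24 genes, against 39.6% of all genes. The median log2 difference was -0.19 for the 24 genes and -0.04 for all genes. In PMCA4b against vector cells, where the vector value is the average of both vector means, 7 were higher and 7 lower, 58.3% against 78.8% of all genes (38.3% higher, 40.5% lower), with medians of 0.05 and -0.00864. PMCA4b and vector arrays did not overlap for 8 of the 24, against 51.3% of all genes. Efna1, Epha3 and Sema7a, among those not called, were undetected on every PMCA4b and vector array. In vector against knockout cells 6 were higher and 10 lower (66.7% against 74.4% of all genes, 39.6% higher and 34.8% lower, medians -0.17 and 0.03). In vector B against vector A 10 were higher and 2 lower (50% against 53.4% of all genes, 27.9% higher and 25.5% lower, medians 0.13 and 0.00253). Arrays did not overlap for 10 of the 24 genes in vector against knockout and for 9 in vector B against vector A, where 43.5% and 46.6% of all genes did not. A moderated F test over the 5 groups called 22 of the 24 genes, against 95.2% of all genes. The exceptions were Sema4d and Epha8. The comparisons of PMCA4b with vector and of vector with knockout share the vector arrays, and those of knockout with wild type and of vector with knockout share the knockout arrays.

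**Figure D2:**
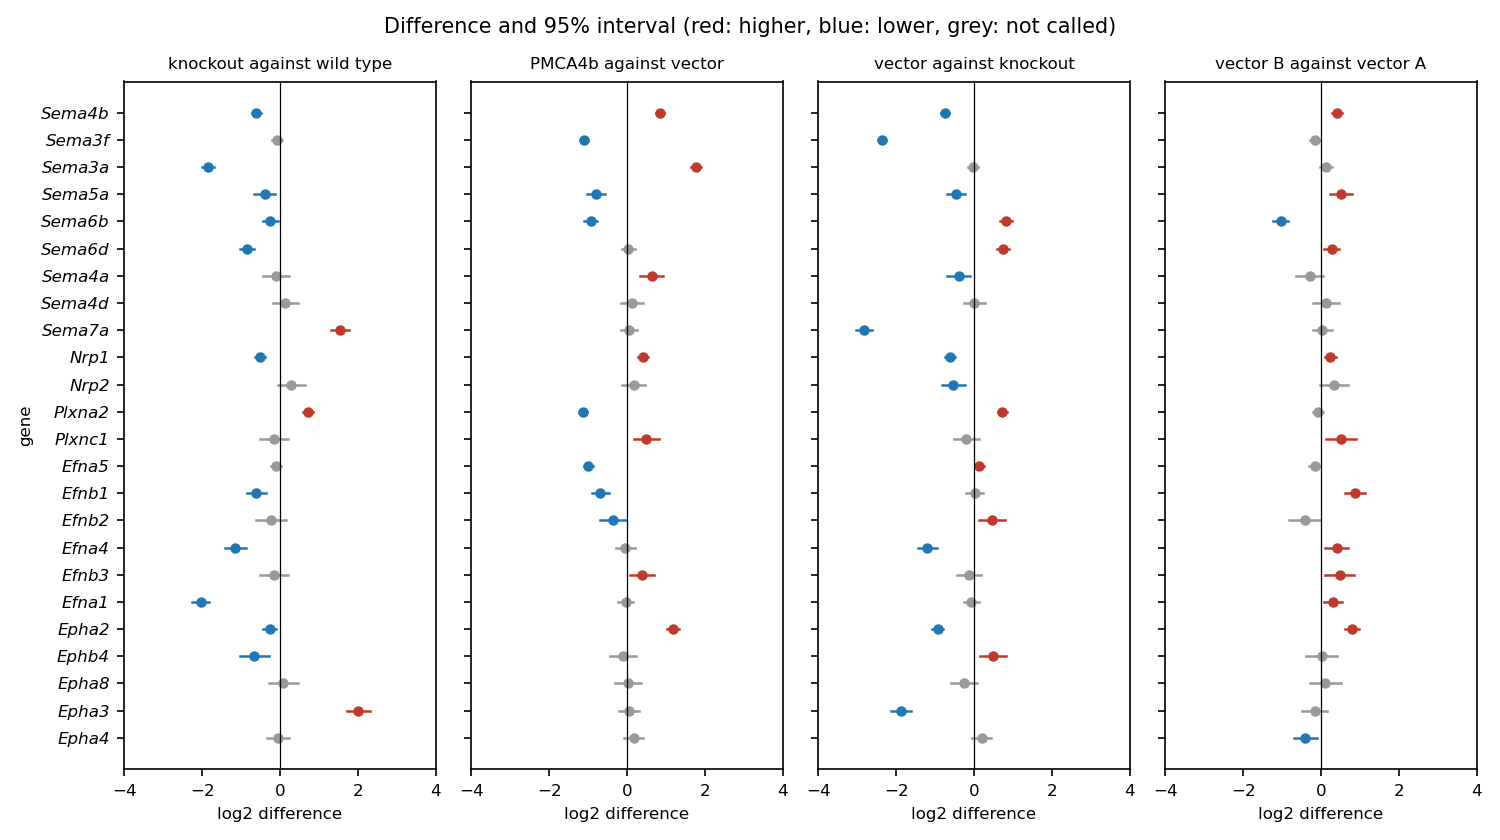
Log2 difference (horizontal axis) of the 24 tested guidance genes (rows, by family) in 4 comparisons, with bars for the 95% interval of the moderated test. Sema3a lies far to the left in knockout against wild type and far to the right in PMCA4b against vector, while Sema7a, Sema3f and Epha3 lie far to the left in vector against knockout.

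Sema3a, a secreted class 3 semaphorin that repels axons and inhibits cell migration, fell in knockout cells and was higher with PMCA4b than with vector. It read 10.72, 10.90, 10.88, 10.78 and 10.95 on the wild-type arrays and 8.92, 9.01, 9.03, 8.94 and 9.07 on the knockout arrays. With PMCA4b it read 10.45, 10.83, 10.72, 10.86 and 10.92, with vector A 8.94, 9.03, 8.86, 8.83 and 8.85, and with vector B 9.09, 8.95, 9.07 and 9.05. All 10 arrays of wild-type and PMCA4b cells thus lay above all 14 arrays of knockout and vector cells. The mean of 8.99 ± 0.0626 (SD, n = 5) in knockout stood below 10.85 ± 0.0949 (SD, n = 5) in wild type, a 3.61-fold fall (log2 difference -1.85, SE 0.0703, limma adjusted p = 1.23e-16). With PMCA4b the mean was 10.76 ± 0.187 (SD, n = 5), 3.44-fold above vector (log2 difference 1.78, SE 0.0622, limma adjusted p = 6.7e-18). Among the 3 groups labelled as lacking the pump, vector differed from knockout by -0.02 (95% interval -0.15 to 0.11, limma adjusted p = 0.759). Vector B differed from vector A by 0.14 (95% interval -0.02 to 0.29, limma adjusted p = 0.125), and with the set of arrays (described below) as a block by 0.28 (adjusted p = 0.0213). PMCA4b cells differed from wild type by -0.09, limma adjusted p = 0.267. Against each vector alone the rise was 1.85 and 1.71 on the log2 scale. Of all 7675 genes, 3.56% had every wild-type and PMCA4b array above every other array, and Sema3a was the only guidance gene among them.

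Plxna2 encodes plexin-A2, a class A plexin that relays semaphorin signals, and it moved the opposite way to Sema3a. It read 10.11, 10.04, 9.97, 9.68 and 9.78 in wild-type cells and 10.19, 10.30, 10.28, 10.19 and 10.16 with PMCA4b. It read 10.60, 10.68, 10.63, 10.65 and 10.59 in knockout cells, 11.35, 11.36, 11.36, 11.47 and 11.46 with vector A and 11.33, 11.26, 11.34 and 11.34 with vector B. Every wild-type and PMCA4b array lay below every knockout and vector array, which held for 4.1% of all genes and, among guidance genes, for Plxna2 alone. The mean rose from 9.92 ± 0.18 (SD, n = 5) to 10.63 ± 0.0353 (SD, n = 5) in knockout cells, 1.64-fold (log2 difference 0.71, SE 0.0619, limma adjusted p = 7.26e-10), and was 10.22 ± 0.0627 (SD, n = 5) with PMCA4b, 2.19-fold below vector (log2 difference -1.13, SE 0.0547, limma adjusted p = 3.63e-15). PMCA4b cells stood above wild type (log2 difference 0.31, limma adjusted p = 0.000121), and vector cells stood 1.66-fold above knockout (limma adjusted p = 2.26e-11). Vector B differed from vector A by -0.08 (95% interval -0.22 to 0.05, limma adjusted p = 0.308).

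Nrp1, neuropilin-1, the binding receptor of Sema3a, was highest in wild-type cells and lowest with vector. It read 12.06, 12.04, 12.26, 12.02 and 12.28 in wild-type cells, 11.52, 11.72, 11.51, 11.62 and 11.77 in knockout cells and 11.29, 11.43, 11.43, 11.47 and 11.49 with PMCA4b. With vector A it read 10.84, 10.94, 10.88, 10.95 and 10.83, and with vector B 11.24, 11.18, 11.03 and 11.10. No 2 groups overlap, in the order wild type, knockout, PMCA4b, vector B, vector A. In knockout cells it fell 1.42-fold (log2 difference -0.51, SE 0.0637, limma adjusted p = 3.42e-07), and with vector it fell a further 1.53-fold below knockout (limma adjusted p = 7.65e-10). With PMCA4b it was 1.33-fold above vector (limma adjusted p = 4.97e-07) but below untransfected knockout cells (-0.21, limma adjusted p = 0.00643) and below wild type (-0.71, limma adjusted p = 6.34e-10). Its other probe gave -0.55 in knockout cells relative to wild type and 0.43 with PMCA4b relative to vector on the log2 scale, and did not call vector B against vector A (0.13, adjusted p = 0.184).

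Neuropilin-2 (Nrp2), which binds Sema3f, was near the detection limit and was detected on 6 of 24 arrays, 3 of them knockout. Its mean was 6.43 in knockout cells and between 5.73 and 6.14 in the other groups, and it was lower with vector than in knockout cells (at least 1.07-fold, limma adjusted p = 0.00205). The other probes of Nrp2 were detected on 0 arrays.

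The promoters of Sema3a and Plxna2, the ligand and receptor that moved in opposite directions, are shown with those of Epha3 and Sema7a. Epha3 and Sema7a were highest in untransfected knockout cells (described below). These 4 were picked after their levels were seen, and arrays of other guidance genes, such as Nrp1, also separated by group. RefSeq promoter windows of GRCm38.p6, 250 bases before to 50 bases after the start of the gene, were found for 43 of the 49 genes and 22 of the 24 tested. Capitals mark the letters GGAAA or their reverse complement TTTCC, the core bound by NFAT, a transcription factor switched on by calcium and calcineurin.
Sema3a, chr5:13396534-13396833 (+ strand): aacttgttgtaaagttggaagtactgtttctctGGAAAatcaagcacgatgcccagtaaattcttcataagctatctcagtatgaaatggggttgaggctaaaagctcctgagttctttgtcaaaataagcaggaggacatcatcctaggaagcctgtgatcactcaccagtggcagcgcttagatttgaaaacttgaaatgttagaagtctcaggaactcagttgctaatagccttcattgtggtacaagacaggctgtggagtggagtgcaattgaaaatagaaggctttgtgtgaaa
Plxna2, chr1:194619579-194619878 (+ strand): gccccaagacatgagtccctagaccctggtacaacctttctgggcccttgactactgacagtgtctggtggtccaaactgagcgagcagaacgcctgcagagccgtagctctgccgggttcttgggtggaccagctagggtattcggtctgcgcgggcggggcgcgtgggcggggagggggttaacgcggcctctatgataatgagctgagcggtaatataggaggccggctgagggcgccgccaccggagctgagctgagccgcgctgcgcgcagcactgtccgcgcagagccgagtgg
Epha3, chr16:63864126-63864425 (- strand): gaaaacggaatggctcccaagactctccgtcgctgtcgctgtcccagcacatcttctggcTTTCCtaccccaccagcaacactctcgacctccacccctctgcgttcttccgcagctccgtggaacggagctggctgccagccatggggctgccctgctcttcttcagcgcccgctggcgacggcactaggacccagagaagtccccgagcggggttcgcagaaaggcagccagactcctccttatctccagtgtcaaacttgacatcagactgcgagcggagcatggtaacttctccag
Sema7a, chr9:57939862-57940161 (+ strand): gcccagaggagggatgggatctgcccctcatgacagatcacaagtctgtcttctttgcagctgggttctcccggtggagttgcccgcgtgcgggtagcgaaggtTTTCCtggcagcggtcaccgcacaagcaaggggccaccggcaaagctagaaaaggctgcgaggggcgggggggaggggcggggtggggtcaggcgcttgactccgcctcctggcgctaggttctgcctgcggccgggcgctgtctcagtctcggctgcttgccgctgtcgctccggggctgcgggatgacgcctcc
Sema3a, Epha3 and Sema7a held 1 match each and Plxna2 held 0, where 61.3% of all 32851 promoter windows hold at least 1. The GC box, GGGCGG or CCGCCC, occurred 2 times each in the Plxna2 and Sema7a windows and in neither of the others (35.7% of all windows). The AP-1 motif TGANTCA (7.81% of windows), the cAMP response element TGACGTCA (1.79%) and the E-box CACGTG (7.15%) occurred in 0 of these 4. The Sema3a window had 41.3% G and C and 2 CpG dinucleotides, against 64.7% and 25 in Plxna2, 60.7% and 18 in Epha3, 67.3% and 23 in Sema7a, and a median of 52.7% and 7 over all windows. These matches are letters in a window, not shown sites.

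Sema3f, a class 3 semaphorin that signals through neuropilin-2, had the widest range of group means among the 24 genes. It read 11.73, 11.55, 11.73, 11.64 and 11.73 in wild-type and 11.73, 11.49, 11.56, 11.60 and 11.63 in knockout cells. It read 8.13, 8.32, 8.05, 8.01 and 8.15 with PMCA4b, 9.31, 9.33, 9.32, 9.35 and 9.26 with vector A and 9.13, 9.31, 9.10 and 9.13 with vector B. Wild-type and knockout arrays overlapped, and each of the 14 arrays of electroporated cells lay below all 10 of them. Knockout differed from wild type by -0.07 (95% interval -0.19 to 0.05, limma adjusted p = 0.299). Vector cells were 5.14-fold below knockout (log2 difference -2.36, SE 0.0516, limma adjusted p = 9.87e-22), and PMCA4b cells were 2.15-fold below vector (log2 difference -1.11, SE 0.0516, limma adjusted p = 1.86e-15). The second detected probe of Sema3f gave -2.42 and -1.14 for these differences. The vector groups differ from untransfected knockout cells by both electroporation and vector DNA, which cannot be told apart.

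Among the membrane-bound semaphorins, Sema4b read 12.72, 12.77, 12.76, 12.62 and 12.50 in wild-type, 12.14, 12.14, 12.09, 12.05 and 11.92 in knockout and 12.23, 12.12, 12.26, 12.16 and 12.14 in PMCA4b cells. It read 11.18, 11.22, 11.14, 10.99 and 11.09 with vector A and 11.56, 11.61, 11.45 and 11.54 with vector B, the lowest values. It fell 1.52-fold in knockout cells (log2 difference -0.61, SE 0.0582, limma adjusted p = 4.27e-09) and 1.67-fold further with vector (limma adjusted p = 5.68e-12), and was 1.8-fold higher with PMCA4b than with vector (log2 difference 0.85, SE 0.0514, limma adjusted p = 2.8e-13). PMCA4b cells differed from untransfected knockout cells by 0.11, limma adjusted p = 0.0898, and stood below wild type (-0.49, limma adjusted p = 7.07e-08).

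Sema5a, a semaphorin with thrombospondin repeats, was highest in wild-type cells and lowest with PMCA4b. It read 9.88, 9.93, 10.16, 9.95 and 10.38 in wild-type cells, 9.63, 9.45, 9.86, 9.64 and 9.77 in knockout cells and 8.34, 8.04, 8.32, 8.45 and 8.99 with PMCA4b. With vector A it read 9.06, 8.72, 8.98, 8.89 and 9.15, and with vector B 9.38, 9.45, 9.58 and 9.47. It was 1.31-fold lower in knockout than in wild-type cells (limma adjusted p = 0.0119) and 1.73-fold lower with PMCA4b than with vector (limma adjusted p = 9.65e-07), although PMCA4b and vector arrays overlapped. In column order the deposited table runs as 3 sets of 8 arrays, a grouping inferred from that order, since no label or header names a chip or set. The third set holds all vector A arrays but only 1 PMCA4b array. Within that set PMCA4b differed from vector A by 0.02 for Sema5a, while PMCA4b differed from vector B by -1.23 and -1.14 within the other sets.

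Sema6b and Sema6d, transmembrane semaphorins that bind class A plexins, behaved differently from each other. For Sema6b the vector A arrays lay above all 19 others. It read 6.55, 6.83, 6.65, 6.70 and 7.03 in wild-type cells, 6.60, 6.44, 6.58, 6.54 and 6.35 in knockout cells and 6.56, 6.24, 6.31, 6.24 and 6.58 with PMCA4b. With vector A it read 7.95, 7.87, 7.84, 7.73 and 7.81, and with vector B 6.68, 6.87, 6.67 and 6.99. Vector B was 2.05-fold below vector A (log2 difference -1.04, SE 0.0938, limma adjusted p = 3.49e-09), and PMCA4b was at least 1.76-fold below the vector average (limma adjusted p = 1.09e-10, detected on 1 of 5 arrays). Its second detected probe gave smaller log2 differences, -0.46 and -0.47. In knockout against wild type Sema6b was called lower at -0.25 (limma adjusted p = 0.0199), but not by its second probe (-0.07, adjusted p = 0.707), nor without wild-type replicate 5 (-0.18, adjusted p = 0.0781) or knockout replicate 5 (-0.21, adjusted p = 0.0589). Sema6d was undetected in knockout cells, at 5.95 to 6.38, and detected on all 19 arrays of the other groups, at 6.59 to 7.14. It was at least 1.44-fold lower in knockout than in wild-type cells (log2 difference -0.84, SE 0.0881, limma adjusted p = 1.7e-08) and at least 1.34-fold higher with vector than in knockout cells (limma adjusted p = 8.32e-09). PMCA4b differed from vector by 0.04 (95% interval -0.13 to 0.20, limma adjusted p = 0.679). The values of Sema6d come from 1 of its 4 probes, and the others were detected on 0 arrays.

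Sema4a and Sema4d, known for roles in immune cells, were near the detection limit. Sema4a was detected on 17 of 24 arrays and was at least 1.36-fold higher with PMCA4b than with vector (limma adjusted p = 0.0003). Its fall in vector against knockout (limma adjusted p = 0.016) was lost without knockout replicate 3 (-0.29, adjusted p = 0.0764). Sema4d was called in 0 of the 4 comparisons, with group means from 6.19 to 6.46.

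Sema7a, a lipid-anchored semaphorin that acts through integrins and plexin-C1, was high in untransfected knockout cells. It read 7.92, 7.87, 7.77, 7.81 and 7.58 there and 6.22, 5.97, 6.53, 6.62 and 5.88 in wild-type cells, where it was detected on 2 of 5 arrays. With PMCA4b it read 5.07, 5.21, 4.96, 4.97 and 4.92, with vector A 5.02, 5.08, 4.79, 4.94 and 4.91 and with vector B 4.77, 5.09, 5.01 and 5.08, and it was detected on 0 of these 14 arrays. Every knockout array lay above every other array. Sema7a passed the filter only through knockout, so its p-values against that group are descriptive. All its values come from 1 of its 3 probes, and the others were detected on 0 arrays, knockout included. Knockout cells were at least 2.48-fold above wild type (log2 difference 1.55, SE 0.113, limma adjusted p = 3.31e-11), and vector cells were at least 2.76-fold below knockout (log2 difference -2.82, SE 0.0997, limma adjusted p = 1.07e-17). Plxnc1, the plexin that binds Sema7a, was detected on 4 of 24 arrays, with means from 5.54 with vector A to 6.30 with PMCA4b. It was called higher with PMCA4b than with vector (log2 difference 0.50, SE 0.156, limma adjusted p = 0.00578) with 1 of 5 and 1 of 9 arrays detected, too near background for a fold.

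**Figure D3:**
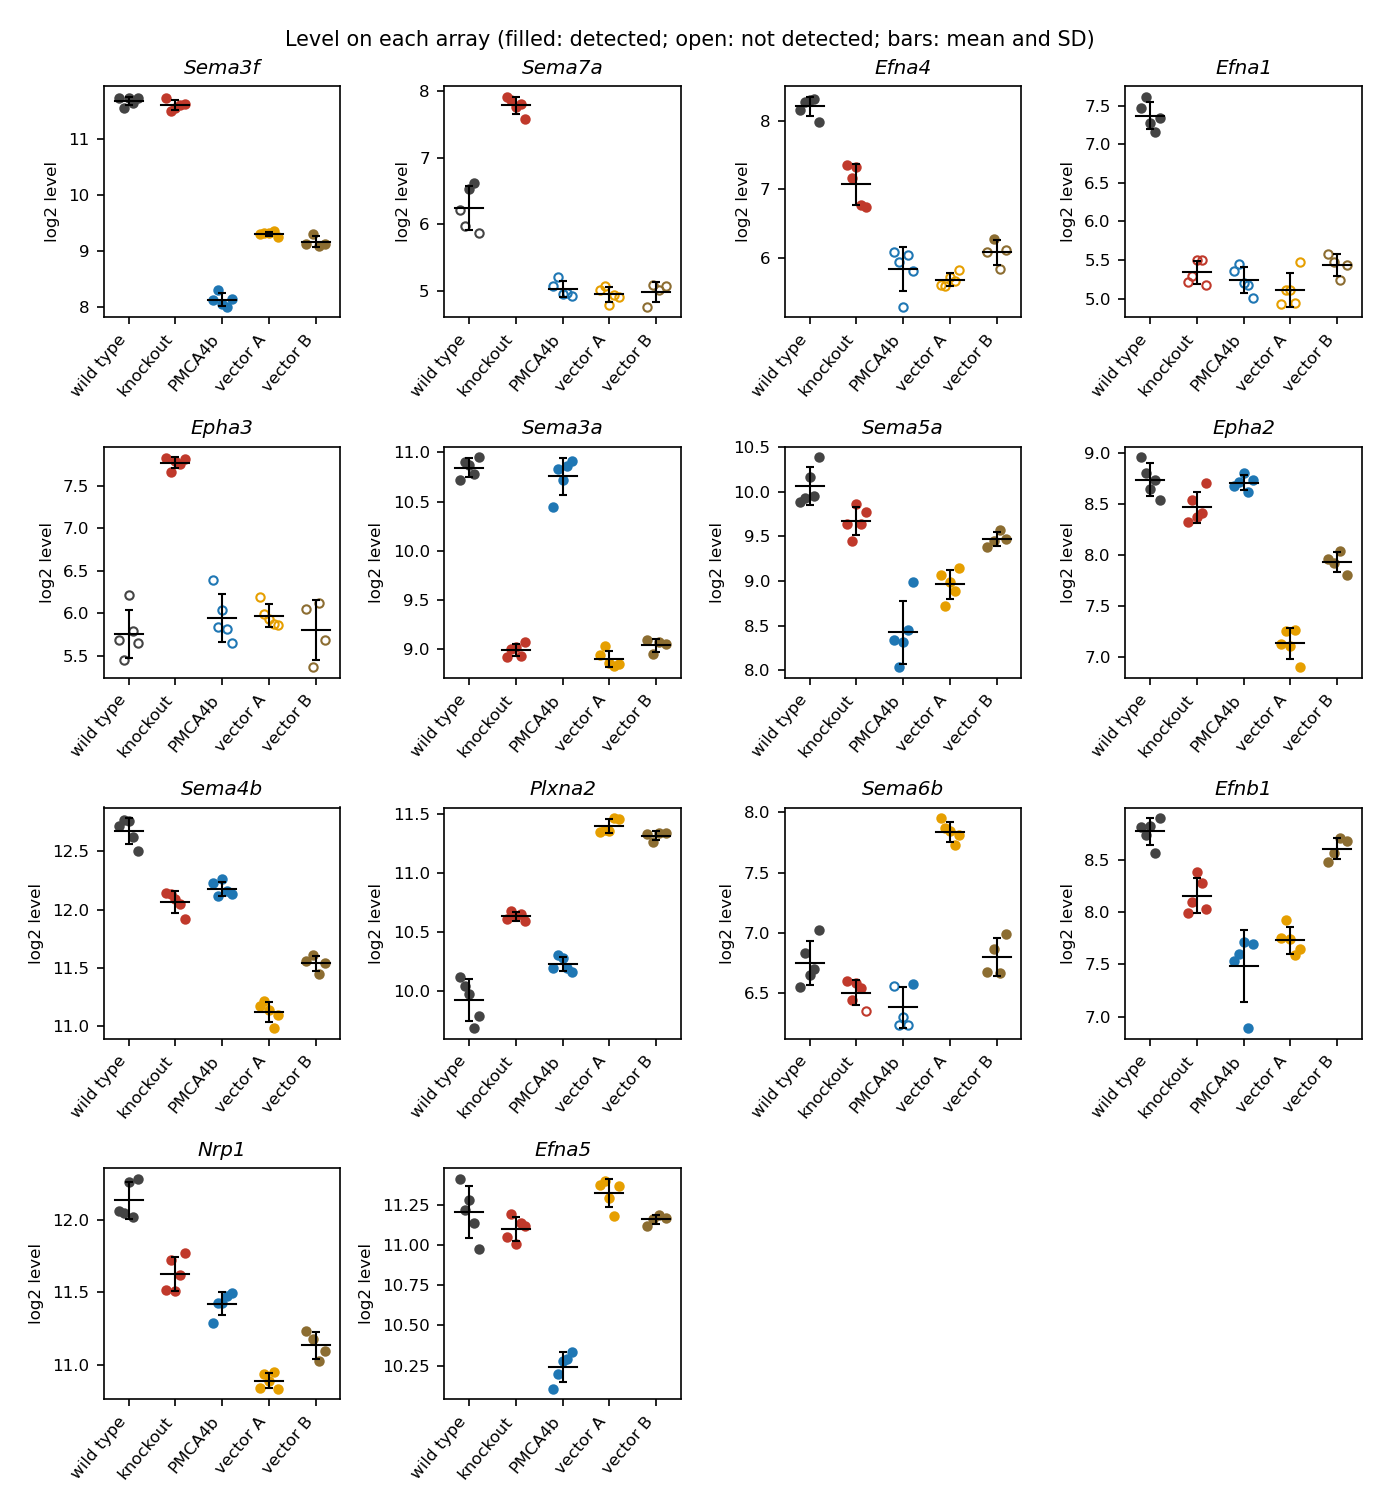
Log2 level (vertical axis, its own scale in each panel) of 14 guidance genes on each array, by group; filled points are detected, open points are not, and bars give the mean and SD. Sema3a is high in wild-type and PMCA4b cells and low in the other 3 groups, Plxna2 shows the reverse, and Sema7a and Epha3 stand out in knockout cells alone.

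Of the ephrins of class A, Efna1, which encodes ephrin-A1, the preferred ligand of EphA2, was detected in wild-type cells alone. It read 7.46, 7.62, 7.28, 7.15 and 7.34 there and 5.22, 5.30, 5.51, 5.50 and 5.18 in knockout cells, where it was undetected. With PMCA4b it read 5.36, 5.44, 5.201, 5.18 and 5.01, with vector A 4.93, 5.11, 5.11, 4.95 and 5.47 and with vector B 5.58, 5.48, 5.25 and 5.44, all undetected. No array of any knockout-derived group reached the wild-type range or detection. Efna1 passed the filter only through wild type, so its p-values against that group are descriptive. Knockout cells were at least 1.94-fold below wild type (log2 difference -2.03, SE 0.105, limma adjusted p = 4.78e-14), and PMCA4b cells differed from wild type by -2.13, limma adjusted p = 8.91e-15. Efna4 (ephrin-A4) read 8.17, 8.29, 8.32, 8.33 and 7.99 in wild-type and 7.36, 7.17, 7.33, 6.77 and 6.74 in knockout cells, and was detected on 1 of the 14 arrays of electroporated cells. On those it read 6.08, 5.94, 5.28, 6.04 and 5.81 with PMCA4b, 5.599, 5.58, 5.71, 5.66 and 5.82 with vector A and 6.08, 6.28, 5.84 and 6.11 with vector B. It was 2.21-fold lower in knockout than in wild-type cells (log2 difference -1.14, SE 0.136, limma adjusted p = 1.39e-07) and at least 1.66-fold lower with vector than in knockout cells (limma adjusted p = 3.8e-09). Its second probe gave -0.89 and -1.16. In the RefSeq table Efna1 and Efna4 lie on chromosome 3 with 1 gene between them, Efna3, and Efna3 was detected on 0 arrays. PMCA4b against vector differed by -0.04 (95% interval -0.23 to 0.16, limma adjusted p = 0.737) for Efna1 and by -0.04 (95% interval -0.29 to 0.20, limma adjusted p = 0.745) for Efna4.

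Efna5 (ephrin-A5) was lowest with PMCA4b. It read 11.41, 11.22, 11.28, 11.13 and 10.97 in wild-type cells, 11.05, 11.19, 11.003, 11.14 and 11.12 in knockout cells and 10.11, 10.20, 10.28, 10.29 and 10.34 with PMCA4b. With vector A it read 11.37, 11.39, 11.29, 11.18 and 11.36, and with vector B 11.12, 11.16, 11.19 and 11.17. The PMCA4b arrays lay below the other 19, with no overlap. PMCA4b cells were 1.99-fold below vector (log2 difference -0.995, SE 0.0578, limma adjusted p = 1.25e-13) and below wild type (-0.96, limma adjusted p = 4.48e-12). Knockout differed from wild type by -0.10 (95% interval -0.24 to 0.03, limma adjusted p = 0.184). Vector against knockout was called at 0.14 (limma adjusted p = 0.0337), which was lost without any of 5 single arrays (knockout replicates 1 and 3, vector A replicates 1 and 2, vector B replicate 3; adjusted p 0.0504 to 0.0999) and was not made by its second probe, detected on 4 arrays (0.16, adjusted p = 0.234).

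Among the receptors, Epha2, a receptor of class A ephrins found in many dividing cells, was low in vector cells. It read 8.95, 8.80, 8.64, 8.74 and 8.53 in wild-type, 8.32, 8.53, 8.37, 8.41 and 8.70 in knockout and 8.67, 8.71, 8.80, 8.62 and 8.73 in PMCA4b cells. It read 7.96, 7.92, 8.03 and 7.80 with vector B and 7.13, 7.26, 7.11, 7.26 and 6.90 with vector A. All 9 vector arrays lay below the other 15, and vector A lay below vector B (log2 difference 0.80, SE 0.0866, limma adjusted p = 6.4e-08). PMCA4b cells were 2.26-fold above vector (log2 difference 1.18, SE 0.0722, limma adjusted p = 3.56e-13) and differed from wild type by -0.03, limma adjusted p = 0.787. Knockout cells were 1.2-fold below wild type (log2 difference -0.27, SE 0.0817, limma adjusted p = 0.00742) with overlapping arrays. Within the third set of arrays, 1 knockout array against 1 wild-type array, this difference was 0.17.

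Epha3, a receptor of ephrin-A5 known from developing and mesenchymal tissue, was detected in untransfected knockout cells alone. It read 7.82, 7.66, 7.80, 7.76 and 7.81 there. It read 5.69, 5.45, 6.22, 5.79 and 5.65 in wild-type cells and 6.39, 5.84, 6.04, 5.82 and 5.65 with PMCA4b. With vector A it read 6.19, 5.999, 5.93, 5.88 and 5.86 and with vector B 6.05, 5.37, 6.13 and 5.69. All arrays outside the knockout group were undetected. Epha3 passed the filter only through knockout, so its p-values against that group are descriptive. Knockout cells were at least 2.57-fold above wild type (log2 difference 2.01, SE 0.142, limma adjusted p = 1.87e-11), and vector cells were at least 2.72-fold below knockout (log2 difference -1.88, SE 0.126, limma adjusted p = 2.5e-12). Its other probes gave log2 differences of 3.51 and 1.85 in knockout relative to wild-type cells, and each was detected on the 5 knockout arrays and on no other. PMCA4b against vector, both undetected, differed by 0.06 (95% interval -0.20 to 0.32, limma adjusted p = 0.684). Epha4 and Epha8 were detected on 5 and 9 of 24 arrays, and neither was called in knockout against wild type, in PMCA4b against vector or in vector against knockout.

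Of the class B genes, Efnb1 (ephrin-B1) was high in wild-type and vector B cells. It read 8.82, 8.74, 8.83, 8.57 and 8.90 in wild-type cells, 7.99, 8.10, 8.38, 8.27 and 8.03 in knockout cells and 7.53, 7.60, 7.71, 6.89 and 7.69 with PMCA4b. With vector A it read 7.75, 7.92, 7.75, 7.59 and 7.65, and with vector B 8.48, 8.56, 8.70 and 8.68. It fell 1.53-fold in knockout cells (log2 difference -0.61, SE 0.117, limma adjusted p = 9.52e-05), with no overlap of arrays. PMCA4b was 1.61-fold below the vector average (limma adjusted p = 2.22e-06), but vector B was 1.83-fold above vector A (log2 difference 0.87, SE 0.124, limma adjusted p = 3.2e-06), and against vector A alone the difference was -0.25 (adjusted p = 0.0592). Efnb2 (ephrin-B2), the arterial marker, was detected on all arrays at 6.51 to 7.72. Knockout differed from wild type by -0.23 (95% interval -0.61 to 0.15, limma adjusted p = 0.3). Its lower level with PMCA4b than with vector (log2 difference -0.36, SE 0.161, limma adjusted p = 0.0438) was lost without any of 9 single arrays (PMCA4b replicates 1 to 4, vector A replicates 1, 3 and 5, vector B replicates 2 and 4; adjusted p 0.0548 to 0.155). Its higher level with vector than in knockout cells (limma adjusted p = 0.0118) was lost without knockout replicate 4 (0.36, adjusted p = 0.0558). Ephb4, the venous receptor of ephrin-B2, was detected on all wild-type and on 2 of 5 knockout arrays and was at least 1.4-fold lower in knockout cells (log2 difference -0.66, SE 0.181, limma adjusted p = 0.00324). It was at least 1.24-fold higher with vector than in knockout cells (limma adjusted p = 0.00878). Efnb3 was detected on 9 of 24 arrays, and its higher call in PMCA4b against vector (limma adjusted p = 0.0234) was lost without PMCA4b replicate 1, 2 or 3 (adjusted p 0.0611 to 0.0824).

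Knockout against wild type and PMCA4b against vector use no array in common and can be set side by side, with the groups as labelled (the Atp2b4 probe differed in neither). Of the 24 genes, 8 were called in both (47.6% of all genes). Of these, 5 went in opposite directions (28.7% of all genes): Sema3a, Sema4b, Nrp1 and Epha2 were lower in knockout and higher with PMCA4b, and Plxna2 was the reverse. Over all genes 14.2% showed the first course and 14.6% the reverse. Efnb1, Sema5a and Sema6b were lower in both (11.2% of all genes), and 0 were higher in both (7.64%). As given above, Efnb1 was not called in PMCA4b against vector A alone. Sema6b was not called in knockout against wild type by its second probe. Within the third set of arrays, the only PMCA4b array stood close to vector A for Sema5a. Of the 5 opposed genes, PMCA4b differed from each vector alone in the same direction as from the average, with log2 differences from vector B of 0.64 for Sema4b, 0.29 for Nrp1, 0.78 for Epha2 and -1.09 for Plxna2. Vector and untransfected knockout cells differed past the threshold for 4 of the 5, Sema3a being the exception. The 5 opposed genes kept their sign in knockout against wild type within each set of arrays, except Epha2.

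**Figure D4:**
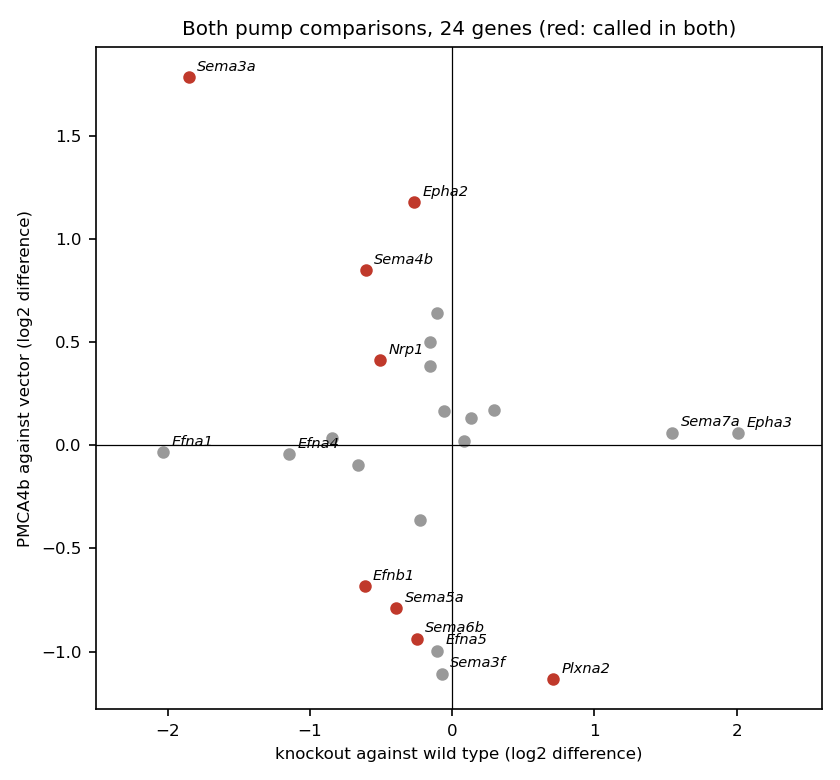
Log2 difference in PMCA4b against vector (vertical axis) over that in knockout against wild type (horizontal axis) for the 24 tested guidance genes; red points were called in both. Sema3a lies at the upper left and Plxna2 at the lower right, while Efna1, Efna4, Sema7a and Epha3 lie near 0 on the vertical axis. These last genes were undetected with PMCA4b and with vector, save Efna4 on 1 vector B array, so their vertical position compares background with background.

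Vector B and vector A differed for 12 genes (50% of the 24, against 53.4% of all genes), of which 10 were higher with vector B. Some of the 10 were near background in both vector groups. Efna1 was detected on 0 arrays of either vector, and Efna4 and Plxnc1 on 0 of vector A and 1 of vector B. The second probe of Efna4 did not make the call (0.21, adjusted p = 0.228). The vectors lie in different sets of arrays, A in the third and B in the others, linked only by the other groups. With the set as a block 6 were higher (Sema3a, Sema4b, Sema5a, Nrp1, Efnb1 and Epha2) and 1 lower (Sema6b), with log2 differences of 0.96 for Efnb1, 0.91 for Sema5a, 0.82 for Epha2 and -0.91 for Sema6b. For Sema5a the difference without the block was 0.51 (limma adjusted p = 0.00318), but its second probe, detected on all 24 arrays, gave 0.15 (adjusted p = 0.448). The calls of Efna1, Efna4, Efnb3, Epha4, Plxnc1 and Sema6d were lost with the block (adjusted p 0.44 to 0.804). They were also lost without single arrays: Efna1 without vector A replicate 1 or 4 or vector B replicate 1 (adjusted p 0.0513 to 0.0659), Efna4 without vector B replicate 2 (0.0817), and Sema6d without vector B replicate 3 or 4 (0.065 to 0.0664). Efnb3 was lost without vector A replicate 5 or vector B replicate 1, 3 or 4 (0.0512 to 0.0857), Epha4 without vector A replicate 4 or vector B replicate 1 or 4 (0.0524 to 0.112), and Plxnc1 without vector A replicate 2 or vector B replicate 3 or 4 (0.069 to 0.104). Of the 30 calls made against the vector average, 2 were lost against vector A alone: Efnb1 in PMCA4b against vector, and Sema4a in vector against knockout (-0.25, adjusted p = 0.167). Against vector B alone Efnb2 (-0.16, adjusted p = 0.481), Efnb3 (0.14, adjusted p = 0.491) and Plxnc1 (0.24, adjusted p = 0.256) were lost in the comparison with PMCA4b. In the comparison with knockout, Sema5a (-0.20, adjusted p = 0.194), Nrp2 (-0.36, adjusted p = 0.0681), Efna5 (0.06, adjusted p = 0.47) and Efnb2 (0.26, adjusted p = 0.238) were lost against vector B alone. With the set of arrays as a block, Efnb2 and Efnb3 were also lost in PMCA4b against vector (-0.21, adjusted p = 0.188, and 0.28, adjusted p = 0.0936), and Efnb2 in vector against knockout (0.32, adjusted p = 0.0557).

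Other genes of the pathways were taken from lists. Of 40 partners of semaphorin signalling 19 were tested, with 9 higher and 7 lower in knockout against wild type, 2 higher and 13 lower in PMCA4b against vector, 11 higher and 4 lower in vector against knockout and 4 higher and 8 lower in vector B against vector A. Flt1, a receptor of vascular endothelial growth factor that shares ligands with neuropilin-1, rose 6.46-fold in knockout cells, from a mean of 6.88 to 9.57 (limma adjusted p = 1.51e-20). It was higher still with vector (10.51) and with PMCA4b (11.31). Nrcam, an adhesion molecule that can join neuropilin complexes, was undetected in wild-type and PMCA4b cells, at least 8.44-fold higher in knockout than in wild-type cells, and at least 1.44-fold lower with PMCA4b than with vector. Trem2, listed as a partner of plexin-A1 in myeloid cells, was detected with vector and undetected on the knockout and PMCA4b arrays, at least 2.94-fold higher with vector than in knockout cells.

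Of 44 partners of Eph and ephrin signalling 28 were tested, with 11 higher and 5 lower, 10 higher and 12 lower, 9 higher and 14 lower and 6 higher and 7 lower in the same order of comparisons. Pik3r1, the regulatory subunit of PI3 kinase, was 5.43-fold lower with PMCA4b than with vector (limma adjusted p = 7.44e-21). Pdzrn3, a ubiquitin ligase, rose 2.07-fold in knockout cells and was 3.03-fold lower with PMCA4b than with vector (adjusted p = 1.76e-13 and 1.44e-18). The adaptor Grb10 was detected in untransfected knockout cells alone, with a mean of 12.10, and entered the test only through them. It stood at least 51.8-fold above wild type and at least 55.0-fold above vector (adjusted p = 9.13e-23 and 9.98e-25, descriptive for that reason). Of 30 slit, netrin and repulsive guidance genes 11 were tested, with 7 higher and 2 lower, 2 higher and 4 lower, 4 higher and 6 lower and 3 higher and 5 lower. The slit receptor Robo1 fell 2.57-fold in knockout cells (adjusted p = 2.1e-12) and was undetected with PMCA4b, at least 2.58-fold below vector (adjusted p = 3.53e-20). Its ligand Slit2 rose 1.8-fold in knockout cells and was 2.19-fold lower with PMCA4b than with vector (adjusted p = 2.65e-10 and 3.86e-14). The netrin receptor Unc5c was at least 1.16-fold lower with vector than in knockout cells (adjusted p = 3.57e-14), with 0 of 9 vector arrays detected. The genes named from each list were picked by their smallest adjusted p, so their p-values lend no separate support. Of all genes, 26.6% were higher and 31.1% lower in knockout against wild type, and 38.3% and 40.5% in PMCA4b against vector. In vector against knockout 39.6% were higher and 34.8% lower, and in vector B against vector A 27.9% and 25.5%. Some list counts lie away from these shares, such as 2 higher and 13 lower of 19 semaphorin partners in PMCA4b against vector. The list counts were not tested against these shares, and nothing is read from them about the lists.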

How the data were processed

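RNA was measured on 24 Illumina bead arrays of 25697 probes. The deposited table holds 1 intensity and 1 detection p-value per probe and array, per the file headers, and many intensities lie below 0, so a background had been subtracted. The authors also deposited log2 values, whose quantiles are equal in every column. The sources used here do not name the authors' software. The intensities went through neqc (limma 3.58.1, R 4.3.3) with offset 16, background inferred from detection p-values, and quantile normalization. Probes with a gene name entered if detected at p under 0.01 in 4 or more arrays, and the probe with the highest mean stood for its gene, which gave 7675 genes. A limma model with a mean per group was fitted to all 24 arrays (moderated two-sided tests, Benjamini-Hochberg over all genes, 19 residual degrees of freedom). Where arrays of the dimmer side were undetected, folds are "at least": each array of the dimmer side was raised to at least its lowest detected value (6.16 to 6.57). The fit was tested on simulated data with known changes. The number of arrays limits the precision. Full values were given by rule for the 12 tested members with the widest range of group means and the member with the highest mean in each family, and up to 3 genes per pathway list by smallest adjusted p. Members and lists were chosen with earlier results of these data known. Python 3.11.15, pandas 2.3.3 and matplotlib 3.10.9 drew the figures and read the promoters. Alternatives covered background, offset, scaling, filter, probe choice, arrays in the fit, array weights, replicate and set blocks, vector used, and each array left out.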

Additional observations from a re-analysis of the deposited data

Results flagged for a closer look

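Of 70 sets of values (14 genes in 5 groups), 3 held an array far from the others of its group by Dixon's 95% limit, where chance flags about 1 in 20. Efnb1 read 6.89 against 7.53 to 7.71 on PMCA4b replicate 4. Vector B replicate 2 stood apart for Sema3f, with 9.31 against 9.10 to 9.13, and for Plxna2, with 11.26 against 11.33 to 11.34.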

How the results depend on the processing

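Of the 56 calls of a gene in a comparison, 38 kept direction and threshold under every alternative run, 18 were lost under at least 1, and 0 reversed. The counts of changed genes stayed within 1.5 times their value under every alternative except in vector B against vector A. There the 10 higher became 6 with the array set as a block. The 2 lower became 1 with the array set as a block, 5 with array weights, 4 with the mean of all kept probes, 5 with only the groups compared in the fit and 4 with the replicate number as a block. Leaving out single arrays gave 1 to 4 lower and 7 to 11 higher there, with the 4 reached without knockout replicate 2 and the 1 without vector B replicate 1. The cause was not tested. The fit with the replicate block lost 0 of the 56 calls. The main fit did not take the replicate numbers as pairing the arrays. Deviations from the group means did not correlate above 0.1 in every same-numbered pair, a strict condition whose failure does not show the arrays to be unpaired. They did in 8 of 46 same-numbered pairs (median 0.0382, highest 0.47) and in 2 of 184 others (median -0.00495). Of the 24 arrays, 15 correlated best with an array of their own number. Within a set of arrays the median was 0.0744 for the 30 same-numbered pairs and 0.038 for the 36 others. Across sets it was -0.00431 for the 16 same-numbered pairs and -0.0118 for the 148 others. Whether same-numbered arrays share a source was not tested. Leaving out single arrays gave 3 higher and 10 to 11 lower in knockout against wild type, 6 to 8 and 6 to 7 in PMCA4b against vector, and 5 to 6 and 9 to 10 in vector against knockout. Leaving out the third set of arrays, chosen after seeing the data and possible only for knockout against wild type among the comparisons, lost 1 of 14 calls, that of Sema6b. Against vector A alone 2 of 30 calls with vector were lost, and against vector B alone 7 of 30. The authors' log2 values lost 0 of 56. Signal over background limits the 14 genes not detected on all arrays, whose folds against undetected arrays are lower bounds.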
